A study of Danio rerio with 10 samples.

Results

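A group of 150 transcripts, of the 16383 in the deposited table, was at or near 0 in zebrafish (Danio rerio, AB strain) embryos through cleavage and then appeared at the dome stage with a lead in the nuclear fraction. They were chosen by their CPM (a transcript's counts divided by the library's total and multiplied by 1000000). Each had at most 1 CPM in all 6 libraries of the 64-cell, 256-cell and 1000-cell stages and at least 5 CPM in the nuclear library at dome. The nuclear CPM at dome was at least 2 times the cytosolic CPM, with 0.5 CPM added to both. The mean of the shield libraries was at least 25% of the mean of the dome libraries. Of 209 transcripts that met the early limit and the dome minimum, 42 fell short on the ratio and another 17 on the shield condition.

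Zebrafish embryos start development on RNA laid down by the mother, and their own genome is largely silent in the cleavage divisions. The major wave of transcription from the embryo's genome begins around the 1000-cell stage, in the midblastula. A messenger RNA is made, capped, spliced and given its poly(A) tail in the nucleus and then exported, whereas some non-coding RNAs stay in the nucleus. At dome the blastula begins to spread over the yolk, and shield is an early gastrula stage named for the dorsal organizer.

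The embryos were wild type and untreated, and all groups share the same preparation. Pools of dechorionated whole embryos were lysed in a buffer that leaves nuclei whole. The supernatant was the cytosolic fraction and the washed pellet the nuclear fraction. Total RNA, with and without poly(A), was sequenced after removal of ribosomal RNA, in 1 library per fraction at each of 5 stages, or 10 libraries. There were no replicates. The libraries held 5909037 (shield nuclear) to 14311969 counts (64-cell cytosolic), so that 3 counts, taken as the floor, corresponded to 0.21 to 0.508 CPM. Intervals and floors cover counting error only. A ratio between fractions compares shares of counts in each library, not the division of molecules between nucleus and cytosol. The cytosolic shield library stood apart in its scaling factor under TMM (edgeR's scaling to a common composition), 0.715 against 0.996 to 1.10 for the other libraries.

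The transcripts carry Ensembl transcript IDs. Of the 16383 IDs, 0 matched the gene name table and 0 matched the RefSeq gene table (assembly GRCz12tu), so the transcripts are named by ID and no gene, function or sequence is given. Counts per transcript depend on how reads were divided among overlapping models of a gene and near-identical copies, which was not stated, and all values of single transcripts are uncertain to that extent.

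Before dome the members left only traces, because the rule required it. No member had more than 13 counts in an early library, and 56 of the 150 had 0 counts in all 6. Within that limit the traces were not alike in the fractions. The summed level of all members in the nuclear libraries was 13.3 CPM at 64-cell (95% Poisson interval 10.97 to 16.04), 24.5 CPM at 256-cell (21.0 to 28.5) and 32.8 CPM at 1000-cell (28.8 to 37.1). In the cytosolic libraries it was 13.8 CPM (12.0 to 15.9), 12.1 CPM (9.96 to 14.5) and 10.2 CPM (8.49 to 12.2). The ratio of the nuclear to the cytosolic sum was 0.963 at 64-cell and 3.20 at 1000-cell. These libraries took part in the choice of members through the limit of 1 CPM, so the values are a description.

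The number of members with at least 1 count in the nuclear library went from 34 at 64-cell to 52 at 256-cell and 71 at 1000-cell. In the cytosolic libraries the numbers were 42, 38 and 40. The nuclear numbers were 22.7%, 34.7% and 47.3% of the members. Of the 7468 other transcripts at or under the same early limit, 8.30%, 10.3% and 12.3% had a count in the nuclear libraries. In the cytosolic libraries 10.9%, 9.86% and 10.8% of them did. The sets are not alike, since the rule required members to be present at dome. Only 30.5% of the 7468 had a count in the dome nuclear library. With each library thinned to the depth of the smallest early library, the expected numbers of members were 32.5, 52.0 and 70.0 for the nuclear libraries. For the cytosolic libraries they were 35.3, 34.1 and 32.8. The 10 members with most counts held 25.5% of the members' counts in the 1000-cell nuclear library. The limit of 1 CPM caps every member there, so a sum spread over many transcripts followed largely from the rule. From 64-cell to 1000-cell the summed nuclear level grew 2.46-fold. For the 7468 other transcripts at or under the same early limit it grew 1.54-fold, from 237 to 366 CPM. Their nuclear/cytosolic ratio was 0.902 at 64-cell and 1.46 at 1000-cell. After TMM scaling, 40 members (26.7%) led by 2-fold or more in the 1000-cell nuclear library and 3 in the cytosolic one. Of 37 transcripts that met the rule's other conditions but had a dome ratio under 2, 15 (40.5%) and 0 did. Among the 9568 transcripts tested at shield, 13.9% and 9.36% did. The early nuclear lead was thus not particular to the members. Under the limit of 1 CPM such a lead could rest on 2 counts against 0, as for ENSDART00000074499, which is under the floor of 3 counts. With 1 library per stage and fraction these differences have no replicate check, and the differences between the sets were not tested.

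**Figure D1:**
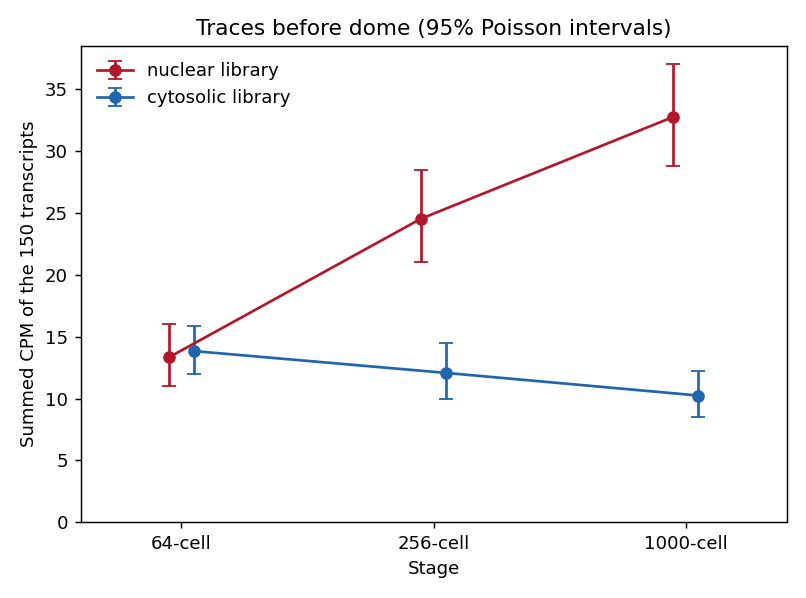
Summed CPM (library totals) of the 150 transcripts on the vertical axis at the 3 stages before dome, for the nuclear (red) and cytosolic (blue) libraries, with 95% Poisson intervals as bars. The nuclear sum goes from 13.3 to 32.8 CPM while the cytosolic sum stays between 10.2 and 13.8 CPM.

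At dome the values chose the members and are given as a description. In the nuclear library members lay between 5.04 and 108 CPM with a median of 7.98, and in the cytosolic library between 0 and 26.4 CPM with a median of 1.81. All 150 led by 2-fold or more in the nuclear library, as did 20.7% of the 9568 transcripts tested, and the rule fixed this count. The median log2 nuclear/cytosolic ratio was 2.00, from 1.04 to 9.02. Together the members held 0.205% of the nuclear and 0.0462% of the cytosolic counts. Nearest to the limit on the ratio, members had 2.01 and 2.02, and the transcripts just outside it had 1.98 and 1.95. The lowest nuclear levels inside the limit were 5.04 CPM, against 4.97 CPM just outside. The highest early level was 0.998 CPM inside and 1.04 CPM just outside, and the lowest shield mean was 0.261 of the dome mean inside and 0.196 outside.

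At shield the median of the members was again higher in the nuclear than in the cytosolic library. In the nuclear library their median was 25.4 CPM (0 to 374) and in the cytosolic library 2.19 CPM (0 to 286). They held 0.784% of the nuclear and 0.255% of the cytosolic counts. On these library totals the nuclear median was above that at dome and the cytosolic median was close to it.

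**Figure D2:**
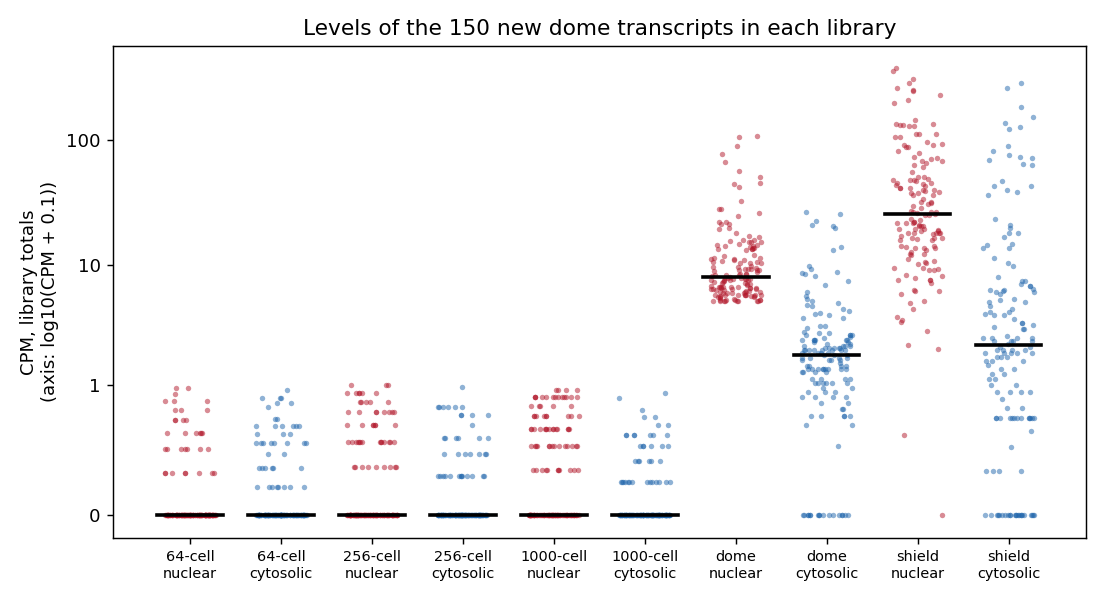
CPM (library totals, axis on a log10(CPM + 0.1) scale) of each of the 150 transcripts in the 10 libraries, nuclear in red and cytosolic in blue, with black bars at the medians. The medians are 0 in all early libraries, 7.98 and 1.81 CPM at dome, and 25.4 and 2.19 CPM at shield.

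Whether the lead in the nucleus was still there at shield was not itself part of the rule, but the mean of both shield libraries was. A member with no cytosolic counts at shield could therefore be chosen only through the nuclear library. The same held for a member whose cytosolic level was too low to meet the shield condition by itself. After TMM scaling, with a prior count of 2, 122 of the 150 members (81.3%) led by at least 2-fold in the shield nuclear library and 3 led by as much in the cytosolic library. Of the 9568 transcripts tested, 29.6% and 21.1% did. The median log2 ratio was 2.62 among the members (quartiles 1.37 and 4.29), against 0.00 among all transcripts tested. Of the 127 members with a count in the shield cytosolic library, 99 (78.0%) led by 2-fold in the nucleus, with a median of 2.19. Many of the 127 also met the shield condition only through the nuclear library, so this subset is not free of the choice. The shares of 81.3% and 78.0% thus draw on members chosen through the library in which they were high. At 4-fold, 93 members (62.0%) led in the nuclear library, against 18.3% of all tested. Scaling by library totals alone shifted the median of all transcripts tested to 0.38. On that scale the nuclear library led by 2-fold for 133 members and the cytosolic one for 3, against 37.2% and 13.5% of all tested, and the members' median was 3.07. All 150 members passed the filter on low counts (at least 10 counts in at least 2 libraries). This filter does not require counts at shield, so the 9568 can include transcripts without counts in either shield library. Such transcripts cannot lead in either fraction, whereas the rule required members to be present at shield. The shares of all tested at shield, here and below, are not matched to the members in this respect.

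Most of these ratios were larger than counting error. On library totals, the exact 95% binomial interval of the nuclear/cytosolic ratio lay above 1 for 142 members, and above 2 for 122 of them. It spanned 1 for 5 members and lay below 1 for 3. On library totals the median log2 ratio of all transcripts tested was itself 0.38. The matching numbers of intervals over all tested were not computed, so these counts have no background beside them.

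The lists most like the members had a nuclear lead at shield as well. Of 37 transcripts that met the same conditions but had a dome ratio under 2, 18 (48.6%) led by 2-fold in the nucleus at shield and 3 in the cytosol, and their median log2 ratio was 0.83. A further 425 transcripts were also at or under 1 CPM at the early stages and had a mean of at least 5 CPM at shield. Of these, 263 (61.9%) led by 2-fold in the nucleus and 37 in the cytosol, with a median of 2.02, and 372 passed the filter on low counts. Both lists were also chosen in part by the mean of the shield libraries. A high nuclear level at shield could therefore bring a transcript into them by itself. The differences between these lists and the members were not tested.

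**Figure D3:**
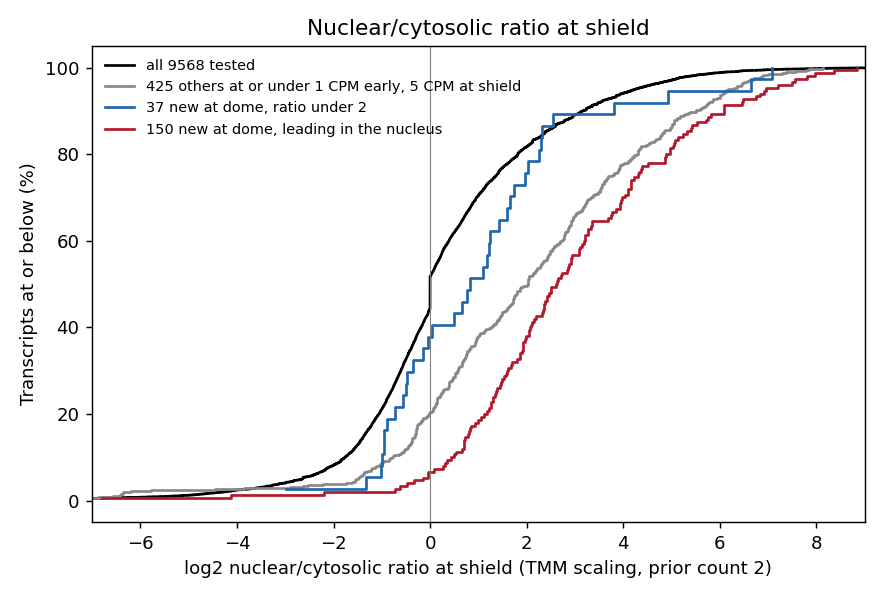
Cumulative percentage of transcripts (vertical axis) by their log2 nuclear/cytosolic ratio at shield (TMM scaling, prior count of 2) for the members and 3 other sets. The curve of the 150 members (red) lies farthest to the right at its median of 2.62, against 2.02, 0.83 and 0.00 for the 425, the 37 and all 9568 tested transcripts.

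Each transcript was then tested for a difference between the shield libraries with edgeR's quasi-likelihood test. Without replicates at shield, the spread was taken from the 3 early stages in each fraction, and the lone shield libraries were assumed to vary like them. The rule capped every member at 1 CPM in these same early libraries. The choice thus also limited the counts that give the spread, and the members' p-values are not free of it. Of the 150 members, 11 (7.33%) passed an adjusted p-value of 0.05 as higher in the nuclear library and 0 as higher in the cytosolic library. Of all 9568 tested, 4.76% passed as nuclear higher and 10.1% as cytosolic higher, so the members' share of nuclear calls was not far from the background. At an unadjusted p-value under 0.05, 24 members (16%) were higher in the nucleus and 1 in the cytosol, against 12% and 18% of all tested. DESeq2 called 17 members (11.3%) as nuclear higher and 0 as cytosolic higher, against 9.29% and 12.9% of all tested. These nuclear shares too were near the background. The 11 had 72 to 399 counts in the shield nuclear library (median 186) and 0 to 15 in the cytosolic library (median 4), with log2 ratios from 4.09 to 7.49. For all 11 the cytosolic level at shield was too low to meet the rule's shield condition by itself. They were thus chosen through the same library in which they passed as higher, and their number is a description.

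The calls fell among members with some early counts. All 11 were among the 94 members with a count in an early library, and had 7 to 37 early counts in all, while 0 of the 56 members with no early count passed. Of those 56, 46 led by 2-fold or more in the nucleus, with a median of 2.79 on the log2 scale, against 76 and 2.45 for the 94. This split was seen at the adjusted threshold, and some of the 56 had an unadjusted edgeR p-value under 0.05. A transcript at 0 in the early libraries shows no spread of its own there. Whether this bears on the calls was not tested. With stage as a block 3 members (2.00%) passed, all nuclear higher, against 2.07% of all tested as nuclear higher and 5.1% as cytosolic higher. With any 1 of the 64-cell, 256-cell and 1000-cell stages left out, 0 passed. Of the 150 members, 27 to 29 then had an unadjusted edgeR p-value under 0.05, nearly all of them nuclear higher. With both directions pooled, this was a smaller share than the 27.8%, 27.2% and 27.8% of all tested. As nuclear higher alone, it was 28, 26 and 26 members without the 64-cell, 256-cell and 1000-cell stage. The matching numbers of all tested were 1030 of 9379, 882 of 9441 and 1072 of 9427, a smaller share than the members'.

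With the prior count of 2, ENSDART00000137145 had the highest log2 ratio at shield among the members that passed. Its counts in the nuclear libraries were 3, 1, 1, 99 and 399 in order of stage, and in the cytosolic libraries 7, 6, 1, 15 and 1. The cytosolic count at shield was below that at dome while the nuclear count was above it. The log2 ratio at shield was 7.49, and the fitted log2 fold change was 8.496 (SE 1.62, edgeR adjusted p = 0.0255). ENSDART00000136844 had 0, 2, 1, 74 and 127 nuclear counts and 4, 6, 4, 16 and 0 cytosolic counts. It was at least 57.2-fold higher in the shield nuclear than in the cytosolic library, taken against 3 counts in the latter (edgeR adjusted p = 0.0400). With 0 cytosolic counts at shield, its log2 ratio of 6.75 depends on the prior count, and so does its rank below ENSDART00000137145. ENSDART00000136844 did not pass with stage as a block (edgeR adjusted p = 0.0620) or without the filter on low counts (edgeR adjusted p = 0.0528).

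In the other direction, 10 members had a log2 ratio below 0 at shield on the TMM scale, 7 of them within 2-fold. The other 3 led by 2-fold or more in the cytosol, and none of these passed the threshold. ENSDART00000101459 had 0 counts in the 6 early libraries, 188 nuclear and 0 cytosolic counts at dome, and 2 nuclear and 345 cytosolic counts at shield. Its log2 ratio went from 6.11 at dome to -6.81 at shield (edgeR adjusted p at shield 0.122). ENSDART00000145426, also at 0 in all early libraries, had 99 nuclear and 22 cytosolic counts at dome and 229 and 1023 at shield, a log2 ratio at shield of -2.20 (edgeR adjusted p = 0.206). Its nuclear count was higher at shield than at dome, in a library with fewer counts in all, and its cytosolic count was higher still. The third, ENSDART00000047555, was named after its values were seen. It had 121 nuclear and 0 cytosolic counts at dome, and 0 nuclear and 19 cytosolic counts at shield (edgeR adjusted p = 0.283).

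The lead at shield varied widely at every size of the lead at dome. The 83 members with a dome ratio from 2 to 4 had a median of 2.33 for the log2 ratio at shield. It was 3.09 for the 44 members from 4 to 8 and 4.16 for the 23 members at 8 or more. The quartiles of these groups overlapped, at 1.28 to 3.81, 1.66 to 4.86 and 1.44 to 5.79. The 23 include all 17 members with 0 cytosolic counts at dome, whose dome ratio depends on the added 0.5 CPM. Of these 17, 9 also had 0 cytosolic counts at shield, so their shield ratio depends on the prior count. Across the 150 members, Spearman's rho between both log2 ratios was 0.261 and Pearson's r was 0.195, a description over transcripts that share the same 4 libraries. Of the 3 members with a cytosolic lead of 2-fold or more at shield, 2 were in the group with the highest dome ratios.

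**Figure D4:**
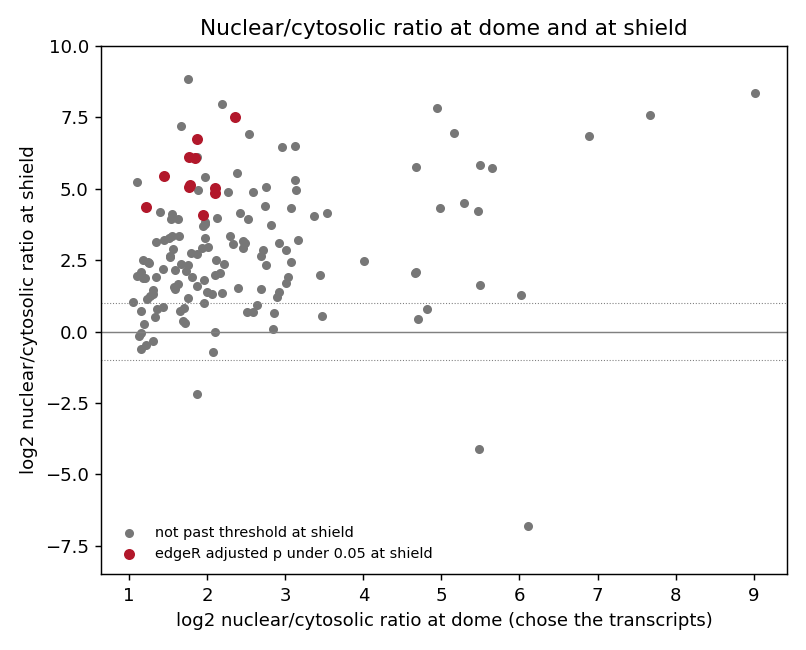
log2 nuclear/cytosolic ratio (TMM scaling, prior count of 2) of each of the 150 transcripts at dome (horizontal axis, which chose them) and at shield (vertical axis), with the 11 past the edgeR threshold at shield in red and dotted lines at 2-fold. Most points, 122, lie above the upper dotted line and 3 lie below the lower one.

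Most members had a higher nuclear level at shield than at dome. These changes are descriptions, since the dome libraries chose the members and the rule removed those with a low shield mean. On the TMM scale, 104 members had at least 2-fold more nuclear signal at shield than at dome and 9 had at least 2-fold less, against 30.4% and 32.5% of all tested. The median log2 change was 1.58. In the cytosolic libraries 65 members were higher and 29 lower, against 26.2% and 32.5% of all tested, with a median log2 change of 0.72. On library totals these cytosolic numbers were 59 and 32 members, against 19.2% and 40.6% of all tested. The median was then 0.24, with the median of all tested at -0.51.

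Summed over members, the cytosolic level grew more than the nuclear level, and a few transcripts made up much of it. The sum went from 2051 to 7843 CPM in the nuclear libraries (3.82-fold) and from 462 to 2547 CPM in the cytosolic libraries (5.51-fold). The sum of the 7468 other transcripts at or under the early limit went from 2886 to 21083 CPM in the nuclear libraries. In the cytosolic libraries it went from 1626 to 13072 CPM. Both sums grew by a larger factor than those of the members, and there too the cytosolic sum grew more. In the shield cytosolic library 10 members held 59.5% of the members' counts, against 39.3% at dome, and 1 member held 11.2%. Without the 10 members with the highest summed dome and shield CPM, the nuclear sum grew 3.35-fold and the cytosolic sum 3.52-fold. On the TMM scale the growth was 3.95-fold and 7.97-fold with all members, and 3.47-fold and 5.08-fold without these 10. The ratio of the nuclear to the cytosolic sum at shield was 3.08 with all members and 4.74 without these 10, and at dome it was 4.44 and 4.97. With TMM scaling the ratio at shield was 2.21 and 3.40.

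Both fractions moved 2-fold or more upward for 56 members, with a further 33 up in the nucleus and within 2-fold in the cytosol. For 15 members the nuclear level went up while the cytosolic level went down, and for 3 the reverse held. A further 21 stayed within 2-fold in both, and 4 went down in both. With the nuclear level within 2-fold, the cytosolic level went down for 10 members and up for 6. In 2 members the nuclear level went down and the cytosolic level stayed within 2-fold. By the end, 33 members had a higher cytosolic CPM at shield than their nuclear CPM at dome. The matching shares over all transcripts tested were not computed, so these joint counts have no background. The rule removed transcripts with a low shield mean, which limits the number that could go down in both.

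The largest upward differences in the cytosol were those of ENSDART00000148413 and in ENSDART00000101459, described above. ENSDART00000148413 had 0, 0, 2, 176 and 1243 nuclear counts in order of stage and 1, 0, 1, 0 and 501 cytosolic counts. It was at least 242-fold higher in the cytosolic library at shield than at dome, against a floor of 3 counts at dome, and 15.9-fold higher in the nuclear library. Its nuclear CPM at shield, 210, was still 3.35 times its cytosolic CPM, 62.7.

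The largest downward differences in the cytosol were those of ENSDART00000017851 and ENSDART00000149361, both at 0 in all early libraries. ENSDART00000017851 had 889 nuclear and 230 cytosolic counts at dome, and 546 and 0 at shield. Its cytosolic level was at least 52.9-fold lower at shield, while its nuclear CPM was 66.9 at dome and 92.4 at shield. ENSDART00000149361 had 1024 nuclear and 153 cytosolic counts at dome, and 267 and 1 at shield, with nuclear levels of 77.1 and 45.2 CPM. In both, the nuclear level moved by less than 2-fold while the cytosolic count was 0 or 1 at shield. In the test at shield their edgeR adjusted p-values were 0.0684 and 0.0926.

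**Figure D5:**
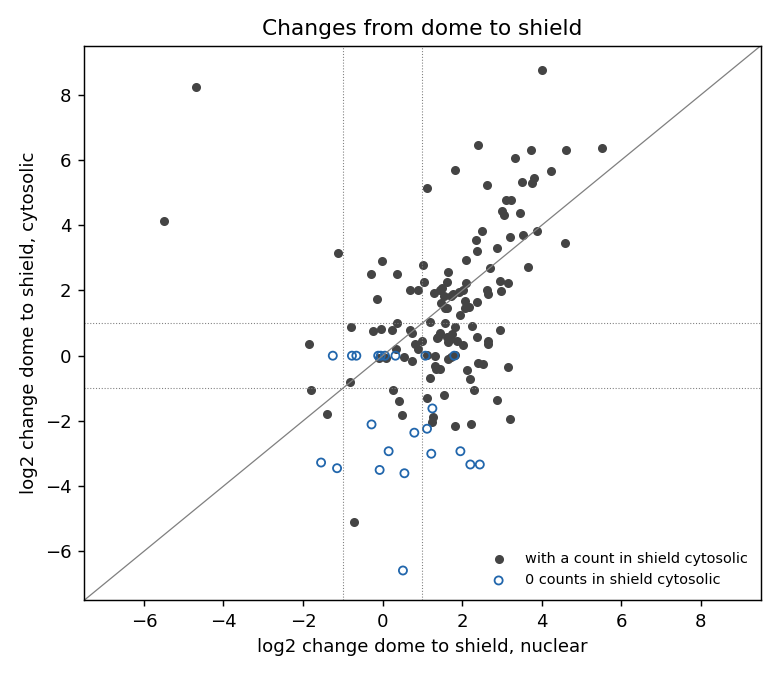
log2 change from dome to shield (TMM scaling, prior count of 2) of each of the 150 transcripts in the nuclear (horizontal axis) and cytosolic libraries (vertical axis), with dotted lines at 2-fold, the diagonal of equal change, and open circles for the 23 transcripts with 0 counts in the shield cytosolic library. The upper right corner holds the 56 transcripts with at least 2-fold more in both fractions at shield.

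Some members had no counts in the cytosolic library at dome, at shield or at both. At dome 17 members had 0 counts in the cytosolic library, and at shield 23 had. Both sets shared 9 members, which had 68 to 1433 counts in the nuclear library at dome (median 122) and 21 to 390 at shield (median 66). Of the 17, the other 8 had more than 3 cytosolic counts at shield, and 14 members went from some cytosolic counts at dome to 0 at shield. Shares of all transcripts tested at 0 in these libraries were not computed, so these numbers have no background. The rule's ratio at dome also favoured transcripts with few cytosolic counts there. Against a floor of 3 counts, the 23 members with 0 cytosolic counts at shield were at least 9.01-fold to at least 246-fold higher in the nuclear library. With members at 0 set to their bounds, the members' median log2 ratio at shield was 2.69 on the TMM scale. Whether reads of these transcripts were assigned to another model of the same gene in the cytosolic libraries was not tested.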

How the data were processed

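The authors deposited 1 table of counts per transcript ID, all whole numbers, with 0 per-sample columns left unmatched to a library. Per the submitters' processing notes, Trimmomatic 0.27, STAR 2.6.0a and StringTie were used with the build Zv9. The counting step, annotation and use of strand are not given in the sources used here. StringTie can split reads among the transcript models of a gene. The values may be estimates from coverage and were treated as counts of reads, which all counting intervals assume.

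The members and lists were chosen with earlier results of these data known. The shield libraries were compared with edgeR 4.0.16 in R 4.3.3 (glmQLFit and glmQLFTest, TMM scaling, Benjamini-Hochberg adjustment over 9568 transcripts, at least 10 counts in at least 2 libraries). The fit had 6 means, with the 64-cell, 256-cell and 1000-cell stages standing in for replicates in each fraction (4 residual degrees of freedom), so its spread includes stage differences. The standard error is the log2 fold change divided by the square root of F. The test was also run on simulated counts, whose outcome is not given here. Those counts gave the shield libraries the spread fitted to the early ones. They therefore could not check the assumption that the shield libraries vary like the early ones. DESeq2 1.42.0, other scalings, filters, a stage block and left-out stages were alternatives. Log2 ratios used a prior count of 2. Python 3.11.15 was used with SciPy 1.17.1.

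Named transcripts were, at shield, the 2 with the highest and the 2 with the lowest ratio among members past the threshold. With fewer than 2 of these in a direction, members past 2-fold with at least 50 counts in the higher library were taken. The 2 largest cytosolic rises and falls from dome to shield were named by the same minimum. Planned gene lists were not used, since no ID had a gene name.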

Additional observations from a re-analysis of the deposited data

Results flagged for a closer look

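The 3 transcripts below were picked out because the nuclear library led at dome and the cytosolic library led by 2-fold or more at shield. The difference between the stages was not tested. The log2 nuclear/cytosolic ratio at shield was -6.81 for ENSDART00000101459, -4.13 for ENSDART00000047555 and -2.20 for ENSDART00000145426. The first rested on 2 nuclear and 345 cytosolic counts, the second on 0 and 19, and the last on 229 and 1023.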

How the results depend on the processing

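The count of 1419 transcripts past the threshold at shield was 686 with stage as a replicate block and 63 to 157 with 1 early stage left out. For the members, 11 passed, against 3 with the block, 17 in DESeq2 and 0 with any 1 early stage left out. The 2 named transcripts that passed did not do so without any 1 early stage. Leaving out a stage removes residual degrees of freedom. Scaling by library totals changed the share of nuclear-higher calls over all transcripts from 32.1% to 62.9%, but gave 12 member calls, all nuclear higher. The members' median cytosolic change from dome to shield was 0.72 and fell to 0.24 with library totals. DESeq2's size factors moved the median nuclear change of all transcripts to 0.14. The number of members was 92 with an early limit of 0.5 CPM. The labels number no replicates, the 2 that ends every column name is not explained, and no paired analysis beyond the stage block was possible because each stage has 1 library per fraction. The number of members past 2-fold at shield in either direction, 125, was 124 to 136 under the alternatives that kept all members. It was 109 among the 129 members with at least 50 counts in a shield library, and 96 members passed 4-fold. One alternative, TMM computed after each library's 10 top transcripts were removed, was chosen after seeing the data and gave 124.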
